A study of Homo sapiens with 3 samples.

Results

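Interferon regulatory factors (IRFs) and the proteins that report foreign or misplaced nucleic acid to them were followed in SK-Hep-1 cells, a long-established human line that came from an adenocarcinoma of the liver and has endothelial traits. The members were chosen by name: IRF1, IRF2, IRF3, IRF5, IRF7, IRF9, CGAS, STING1, MAVS and TBK1, which are 10 of the 22464 Ensembl genes in the deposited table. All 10 were found after the identifiers were paired with symbols. RNA sequencing of mRNA was carried out on 3 stable lines made by lentiviral infection. The first carried a negative control hairpin (shNC), and the others carried 1 of 2 short hairpins against the long noncoding RNA LINC01089 (sh1089-1 and sh1089-2). Each line is 1 library, so no difference below has a replicate check, no p-value is given, and all intervals cover counting error only. Whether a line is 1 clone or a pool is not given in the sources used here. The level of LINC01089 was not analysed here, so the knockdown itself was not checked.

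Values are FPKM, fragments scaled to gene length and library size, so levels of different genes are compared per length. Whole reads were worked out from the steps between FPKM values, and the libraries held between 8359832 (sh1089-2) and 10698480 (shNC) reads, with 9528312 for sh1089-1. In these libraries 3 reads, the limit that a count of 0 allows, correspond to 0.280, 0.315 and 0.359 RPM (reads scaled to library size alone). Defining hepatocyte genes were near 0: APOA1, TTR and FGB were listed at 0 in every library. Of the endothelial markers, CAV1 stood at 248 to 278 FPKM and ENG at 37.5 to 48.8, while PECAM1, VWF and CDH5 had at most 4 reads in any library. Among 10 leukocyte markers, SPI1 and LYZ were listed at 0 and PTPRC had 1, 2 and 0 reads. The summed leukocyte level was 2.79, 2.80 and 2.80 FPKM in shNC, sh1089-1 and sh1089-2, most of it CD14. The 6 hepatocyte markers summed to 5.19, 6.39 and 8.36 FPKM, mostly SERPINA1. The 7 endothelial markers summed to 286, 314 and 321 FPKM, nearly all of it CAV1 and ENG. The part of these differences in the results below was not tested.

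IRFs are transcription factors that bind repeats of GAAA in the control regions of interferon genes and of the genes that interferon induces. Cytosolic DNA is sensed by CGAS, which makes a cyclic dinucleotide that activates STING1 on the endoplasmic reticulum, and cytosolic double-stranded RNA is sensed by RIGI and IFIH1, which act through MAVS on mitochondria. Both adaptors recruit the kinase TBK1, which phosphorylates IRF3 and IRF7. IRF9 is the DNA-binding part of the complex with STAT2 that answers type I interferon, and IRF1 is a classical target of interferon gamma. IRF7 is itself induced by type I interferon in many cells.

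RefSeq promoter windows (250 bases before to 50 after a start, build GRCh38.p14) were at hand for 5 of the 10 members: IRF1, IRF5, IRF9, MAVS and TBK1. They were searched on both strands for TTCNNNGAA (the GAS element of genes that answer interferon gamma), for AANNGAAA (an IRF core), for the interferon-stimulated response element (ISRE, GAAA repeated after any 2 bases) and for the kappa-B consensus bound by NF-kB. Every ISRE contains AANNGAAA, so these overlap. Sites from the 3 genes with a match are shown because IRF1, IRF5 and IRF9 are the members whose mRNA is described below as higher, divergent or scarce. Capitals mark the matched motifs. The IRF1 stretch (chr5:132490804-132490947, minus strand) covers bases 174 to 31 before the RefSeq start, with TTCNNNGAA first and the kappa-B match second. The IRF9 site (chr14:24161192-24161220, plus strand) shows TTCNNNGAA, which begins 63 bases before the RefSeq start and lies inside a GENCODE exon of IRF9. The IRF5 site (chr7:128940627-128940654, plus strand) shows the IRF core read on the other strand, 33 bases before the third of 4 annotated starts.
IRF1: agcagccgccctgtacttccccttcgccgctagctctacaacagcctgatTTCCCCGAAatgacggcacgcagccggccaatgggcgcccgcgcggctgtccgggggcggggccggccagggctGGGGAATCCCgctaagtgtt
IRF9: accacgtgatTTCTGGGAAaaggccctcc
IRF5: gtctagccacTTTCGTTTcccctggggc

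Among all 35116 promoter windows of this length, 7.66% hold TTCNNNGAA, 22.8% AANNGAAA, 3.57% the ISRE and 11.3% the kappa-B consensus. IRF9 also held AANNGAAA, 35 bases before its start. None of the 4 motifs was in the MAVS or TBK1 window or in the other IRF5 windows, and the ISRE was in no member window. A match describes letters in the window and does not show binding.

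The members spanned a wide range of levels. IRF3, MAVS and IRF2 led and IRF5 and IRF9 came last in each library, while the members between them changed places. IRF3 stood highest, at 18.0 FPKM in shNC, above 78.0% of the 11198 genes with a mean of at least 1 FPKM over the 3 libraries (called measured below). MAVS followed at 13.2 FPKM and IRF2 at 8.71. IRF7 had rank 4 in shNC at 7.61 FPKM, a level whose 95% counting interval (6.63 to 8.70) overlapped that of IRF2 (7.73 to 9.78). STING1 came next at 5.84 FPKM, and then TBK1, CGAS and IRF1 at 3.75, 3.52 and 2.80, of which each overlapped the next. IRF5 at 1.09 FPKM and IRF9 at 0.370 closed the order. The gene length behind the FPKM was 4798 bases for STING1 and 6382 for TBK1, where GENCODE 29 gives 3850 and 4762. Their place in the order therefore depends on the annotation. Ratios between libraries are free of the length only where the same reads are counted, and another annotation could count other reads. In sh1089-1 IRF7 had rank 7, and STING1, CGAS, IRF1, IRF7 and TBK1 each overlapped the next. IRF1 had rank 8 in shNC, 6 in sh1089-1 and 5 in sh1089-2. In bulk RNA, fewer cells that express a gene and less RNA per cell cannot be told apart.

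**Figure D1:**
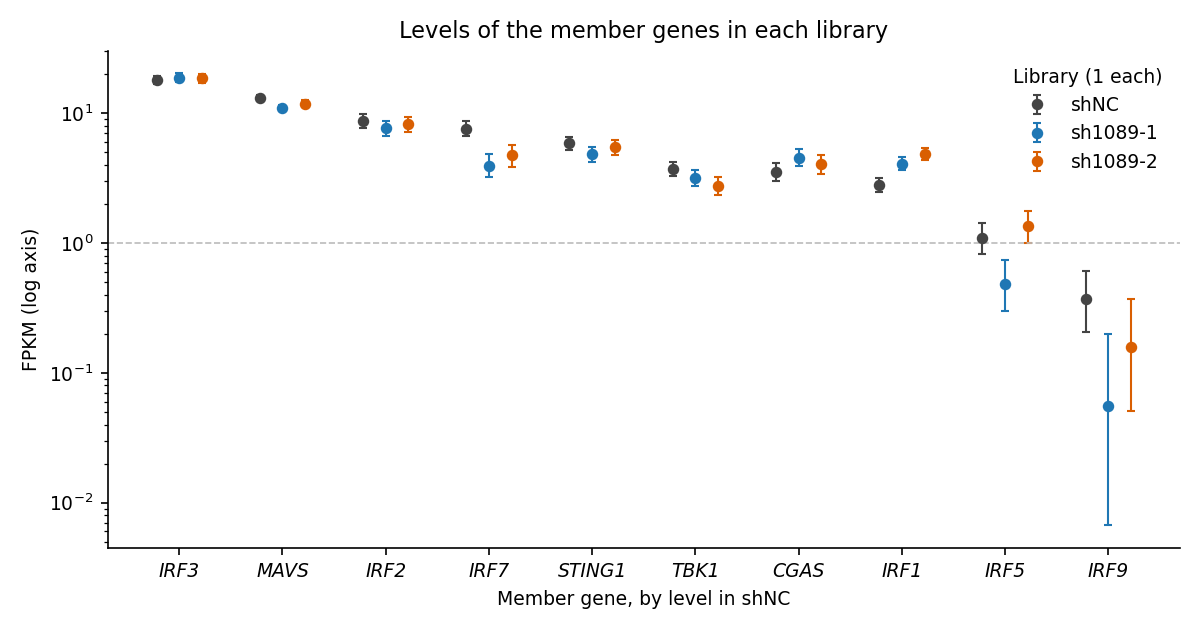
FPKM of the 10 members (log axis) in shNC, sh1089-1 and sh1089-2, ordered by the level in shNC, with bars for the exact 95% Poisson interval of the reads and a dashed line at 1 FPKM. IRF3 stays near 18 to 19 FPKM in each library, IRF7 is lower and IRF1 higher in both hairpin libraries, and IRF9 rests on 15, 2 and 5 reads.

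Of the 8 measured members, IRF7 was the one that lay at least 1.5-fold below shNC in both hairpin libraries. None of them lay at least 1.5-fold above shNC in both. The fold was applied to log2(FPKM + 1), which understates the change of low genes, and 8 of the 10 members were measured. IRF5 and IRF9 had means of 0.973 and 0.194 FPKM and were left out of these counts. Of all 11198 measured genes, 2.79% were lower and 3.08% higher in both hairpins by this rule. With only the 10092 protein-coding genes kept that reached 100 reads over the 3 libraries, these shares were 1.99% and 2.70%. The count of the members rests on 1 gene of 8, so nothing particular to the group is read from it. Both differences were taken from the same shNC library, which they share.

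Taken singly, sh1089-1 had 1 of the 8 measured members lower (IRF7) and 0 higher, where 5.83% of measured genes were lower and 5.27% higher. In sh1089-2 there was 1 lower (IRF7) and 1 higher (IRF1), where the shares were 5.63% and 4.89%. The median difference of the 8 members in log2(FPKM + 1) was −0.18 in sh1089-1 and −0.08 in sh1089-2, beside −0.03 and −0.04 over all measured genes. Over all 10 members the medians were −0.21 and −0.08. Between 20% below and 25% above shNC (FPKM + 1) in both hairpins lay 5 of the 8 (IRF2, IRF3, CGAS, STING1 and MAVS), against 55.0% of all measured genes.

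**Figure D2:**
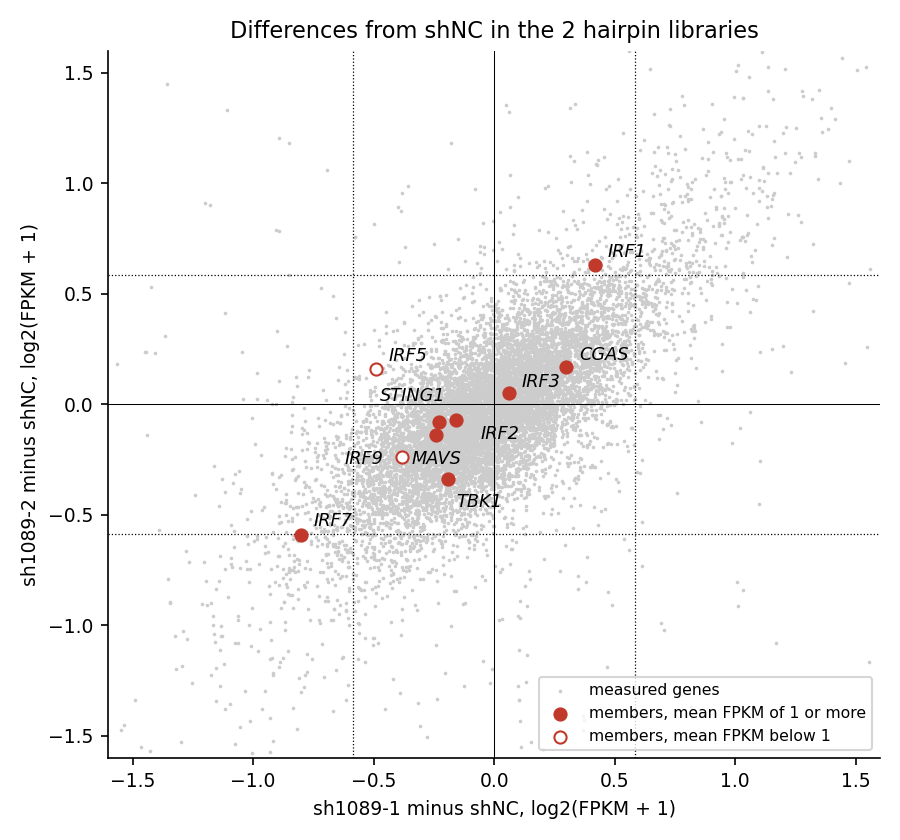
Difference from shNC in log2(FPKM + 1) for sh1089-1 (horizontal axis) and sh1089-2 (vertical axis), with measured genes in grey (167 of them lie beyond the axes), measured members as filled and low members as open red circles, and dotted lines at 1.5-fold. IRF7 sits on the lower left past both lines at −0.80 and −0.59, IRF1 on the upper right at 0.42 and 0.63, and the other members lie inside the dotted lines. Both axes use the same shNC library.

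IRF7, which joins IRF3 in switching on interferon genes (chromosome 11, 612553 to 615999, minus strand, GRCh38, GENCODE 29), had 7.61 FPKM in the control and 3.95 and 4.73 with sh1089-1 and sh1089-2, on 214, 99 and 104 reads. The hairpin libraries were close to each other and both below the counting interval of shNC. The level was 1.93-fold lower in sh1089-1 (95% Clopper-Pearson interval 1.51 to 2.47) and 1.61-fold lower in sh1089-2 (1.27 to 2.05). On the log2(FPKM + 1) scale the difference in sh1089-2 was −0.587, just past the threshold of −0.585. It was −0.584 after rescaling to TPM and −0.580 after centring on the median gene. Either scaling therefore ends the call in both hairpins, with the direction kept. No exon base of IRF7 is shared with another annotated gene.

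IRF7 lies near the short-arm end of chromosome 11, and 40 measured genes around it (15 before and 25 after it, over 2.76 Mb) were looked at for a shared shift. Their median difference in log2(FPKM + 1) was 0.03 in sh1089-1 and −0.09 in sh1089-2, and 19 of the 40 lay below shNC in both by any amount, as did 42.3% of all measured genes. At or below the difference of IRF7 were 1 of the 40 genes in sh1089-1 and 2 in sh1089-2. CTSD, a lysosomal protease, and SLC22A18AS were the 2 neighbours at least 1.5-fold lower in both.

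**Figure D3:**
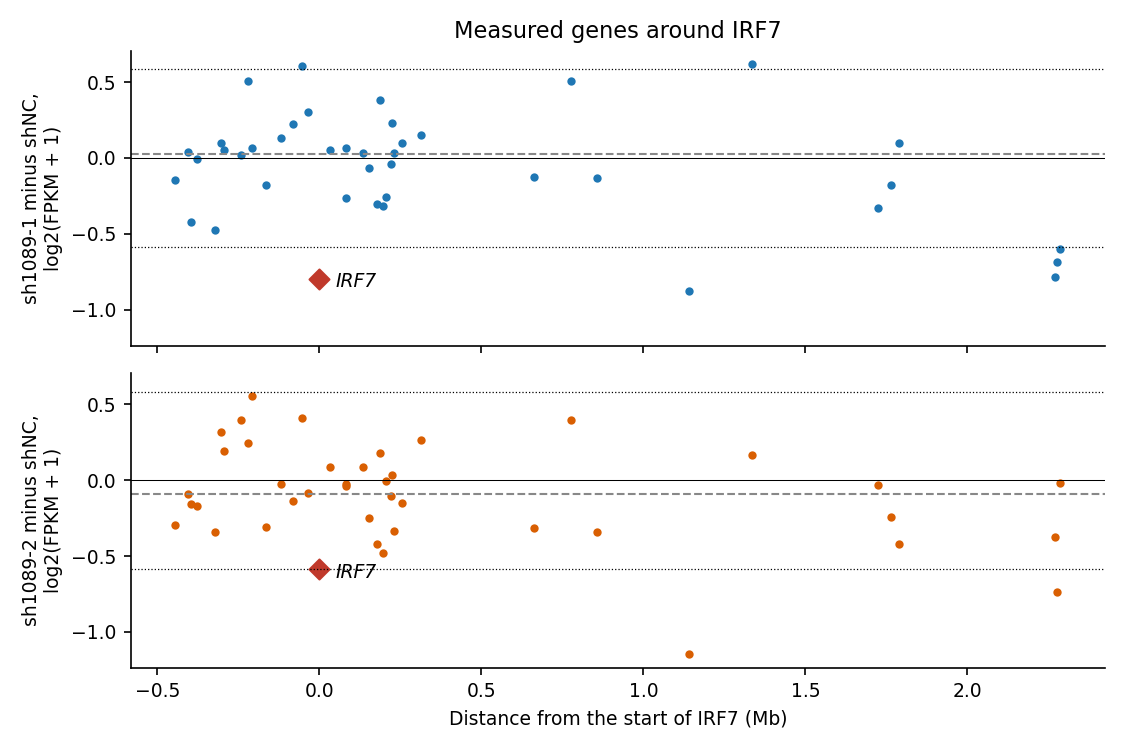
Difference from shNC in log2(FPKM + 1) for IRF7 (red diamond) and 40 measured genes around it, against distance from the start of IRF7 in Mb, in sh1089-1 (upper panel) and sh1089-2 (lower panel). The start here is the lower coordinate of each gene, which for IRF7 on the minus strand is not the transcription start. The dashed line is the median of the neighbours, 0.03 and −0.09, and dotted lines mark 1.5-fold; IRF7 lies below most of its neighbours in both panels.

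IRF1, an activator of antiviral and antigen presentation genes (chromosome 5, 132481609 to 132490798, minus strand), had 2.80 FPKM in the control and 4.09 and 4.88 with sh1089-1 and sh1089-2, on 233, 303 and 317 reads. Both hairpin libraries lay above the counting interval of shNC, which ended at 3.18 FPKM. The level was 1.46-fold higher in sh1089-1 (1.23 to 1.74) and 1.74-fold higher in sh1089-2 (1.47 to 2.07). IRF1 passed 1.5-fold in sh1089-2 but not in sh1089-1, with differences of 0.63 and 0.42 in log2(FPKM + 1). Genes on the opposite strand together share 22.0% of its exon bases. The libraries were strand-specific, but whether the authors counted by strand is not given in the sources used here.

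IRF2, which competes with IRF1 for the same sites (chromosome 4, 184387713 to 184474580, minus strand), had 8.71 FPKM in the control, then 7.69 and 8.22 with the 2 hairpins. Its ratio to shNC was 0.883 (0.738 to 1.06) and 0.944 (0.787 to 1.13), and both intervals include 1. IRF1 stood at 32.2% of the IRF2 level in shNC, at 53.2% in sh1089-1 and at 59.3% in sh1089-2, per length.

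IRF3, the constitutive IRF activated by TBK1 (chromosome 19, 49659569 to 49665875, minus strand), had the smallest differences of the measured members. It stood at 18.0, 18.8 and 18.6 FPKM in shNC, sh1089-1 and sh1089-2 on 729, 680 and 591 reads, with ratios of 1.05 (0.942 to 1.16) and 1.04 (0.929 to 1.16). BCL2L12, which runs the other way and shares 19.3% of the IRF3 exon bases, had 25.3, 36.6 and 35.0 FPKM. IRF3 outweighed IRF7 by 2.36-fold in shNC, 4.76-fold in sh1089-1 and 3.94-fold in sh1089-2, per length.

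IRF5, a factor of Toll-like receptor signalling best known from myeloid cells (chromosome 7, 128937612 to 128950035, plus strand), was the member that stood on opposite sides of shNC. It had 1.09 FPKM in the control and 0.485 and 1.34 with sh1089-1 and sh1089-2, on 53, 21 and 51 reads. The level was 2.25-fold lower in sh1089-1 (1.33 to 3.92), and its ratio in sh1089-2 was 1.23 (0.822 to 1.84). Of measured genes, 24.2% lay on opposite sides of shNC by any amount.

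IRF9, the DNA-binding part of the type I interferon response factor (chromosome 14, 24161053 to 24166565, plus strand), had 0.370, 0.0553 and 0.158 FPKM, on 15, 2 and 5 reads. The ratio was 0.150 in sh1089-1 (0.0166 to 0.644) and 0.427 in sh1089-2 (0.121 to 1.24). At 2 and 5 reads the hairpin libraries were near the limit of what this depth can show. An annotated read-through gene on the same strand, AL136295.5, shares 48.4% of the IRF9 exon bases and 34.8% of those of RNF31, the gene before it, and was itself listed on 0, 4 and 1 reads. RNF31, chosen after its values were seen, also had only 15, 7 and 7 reads. How reads over shared bases were counted is not given in the sources used here, and its part in the low values was not tested.

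Neither the DNA sensor, the 2 adaptors nor the kinase was past 1.5-fold in either hairpin library. CGAS, the DNA sensor (chromosome 6, 73413515 to 73452276, minus strand), had 3.52 FPKM in the control and 4.55 and 4.07 with sh1089-1 and sh1089-2, on 157, 181 and 142 reads. Its ratio was 1.29 (1.04 to 1.61) and 1.16 (0.916 to 1.46), so the second interval includes 1. STING1, its adaptor (chromosome 5, 139475534 to 139482935, minus strand), had 5.84, 4.86 and 5.46 FPKM on 300, 222 and 219 reads. It was 1.20-fold lower in sh1089-1 (1.01 to 1.44), and in sh1089-2 the ratio of 0.934 had an interval that includes 1 (0.781 to 1.12).

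MAVS, the mitochondrial adaptor of the RNA sensors (chromosome 20, 3846799 to 3876123, plus strand), was the most deeply sequenced member, with 1659, 1235 and 1164 reads. It had 13.2, 11.0 and 11.8 FPKM and was 1.20-fold lower in sh1089-1 (1.11 to 1.29) and 1.11-fold lower in sh1089-2 (1.03 to 1.20). Both intervals exclude 1, but they hold no spread between cultures. TBK1, the shared kinase (chromosome 12, 64451880 to 64502108, plus strand), had 3.75, 3.16 and 2.76 FPKM on 256, 192 and 147 reads. It was 1.19-fold lower in sh1089-1 (0.981 to 1.44) and 1.36-fold lower in sh1089-2 (1.11 to 1.68). An antisense gene without a value in the deposited table shares 14.7% of the TBK1 exon bases.

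The hairpin libraries were also compared with each other. None of the 8 measured members differed by 1.5-fold or more, where 4.78% of measured genes did in either direction. IRF1 was 1.19-fold higher in sh1089-2 than in sh1089-1 (1.01 to 1.40), and IRF7 1.20-fold (0.901 to 1.59). IRF5, below the filter, was 2.77-fold higher (1.64 to 4.85). The remaining members had intervals that include 1.

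Genes around the members were described from lists of related genes, with the fold again applied to log2(FPKM + 1). Of all measured genes, 2.79% lay 1.5-fold or more below shNC with both hairpins and 3.08% above. A list with 0 or 1 such gene is near these shares, and nothing particular to it is read from that count. Among RNA sensing genes, RIGI and OAS3 lay 1.5-fold or more above shNC with both hairpins and none lay as far below, of 12 measured, and 8 of the 12 lay above shNC in both by any amount. Of all measured genes, 33.3% did so against the same shared control. RIGI, a sensor of RNA ends, had 7.84 FPKM in the control and 12.8 and 12.7 with sh1089-1 and sh1089-2, or 1.64-fold (1.44 to 1.87) and 1.61-fold (1.41 to 1.85) the control. IFIH1, the sensor of long double-stranded RNA, had 5.45, 7.70 and 8.31 FPKM, 1.41-fold (1.21 to 1.65) and 1.52-fold (1.30 to 1.78). OAS3, which makes oligoadenylate on binding RNA, had 8.14, 13.0 and 16.9 FPKM. All 3 are themselves interferon-induced in many cells. The list medians in log2(FPKM + 1) were 0.28 and 0.52. OAS2, named after its values were seen, was 1.525-fold and 3.06-fold the control in FPKM. It was not counted, with 0.39 in log2(FPKM + 1) for sh1089-1.

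The list of interferon-induced genes held 20 genes, of which 12 were measured, and the rest were not counted in either direction. Of the 12, 7 lay 1.5-fold or more above shNC with both hairpins, beside 3.08% of all measured genes. Among the 7 were IFIT1, IFIT2, IFI6, ISG15, OASL and RSAD2. RSAD2 had 0.752, 3.38 and 4.84 FPKM, so it passed the filter only through the hairpin libraries, where it was high. No measured gene of the list was as far below, and the medians were 0.80 and 0.93. By any amount, 11 of the 12 lay above shNC in both and 1 below, IFI35 at −0.36 and −0.15. IFI44, named after its values were seen, was 1.71-fold and 1.51-fold the control in FPKM. It was not counted, with 0.53 in log2(FPKM + 1) for sh1089-2. OASL, which promotes RIGI signalling, had 16.4, 51.1 and 61.6 FPKM, 3.11-fold (2.84 to 3.42) and 3.75-fold (3.42 to 4.12) the control. IFIT1, an RNA-binding effector, stood at 25.6, 50.1 and 50.1 FPKM, and ISG15, a ubiquitin-like modifier, at 161, 386 and 384. These genes stood higher with both hairpins while IRF7, which is interferon-induced in many cells, stood lower. The list was chosen with results of these libraries known, so its count is a description. IFNB1, the interferon beta gene, rested on 1, 5 and 8 reads. Its ratio was 5.61 in sh1089-1 (0.628 to 266) and 10.2 in sh1089-2 (1.37 to 454), so for sh1089-1 this depth could not show a difference. IFNL1, IFNL2 and IFNL3 had at most 4 reads in any library, so no interferon gene was measured.

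**Figure D4:**
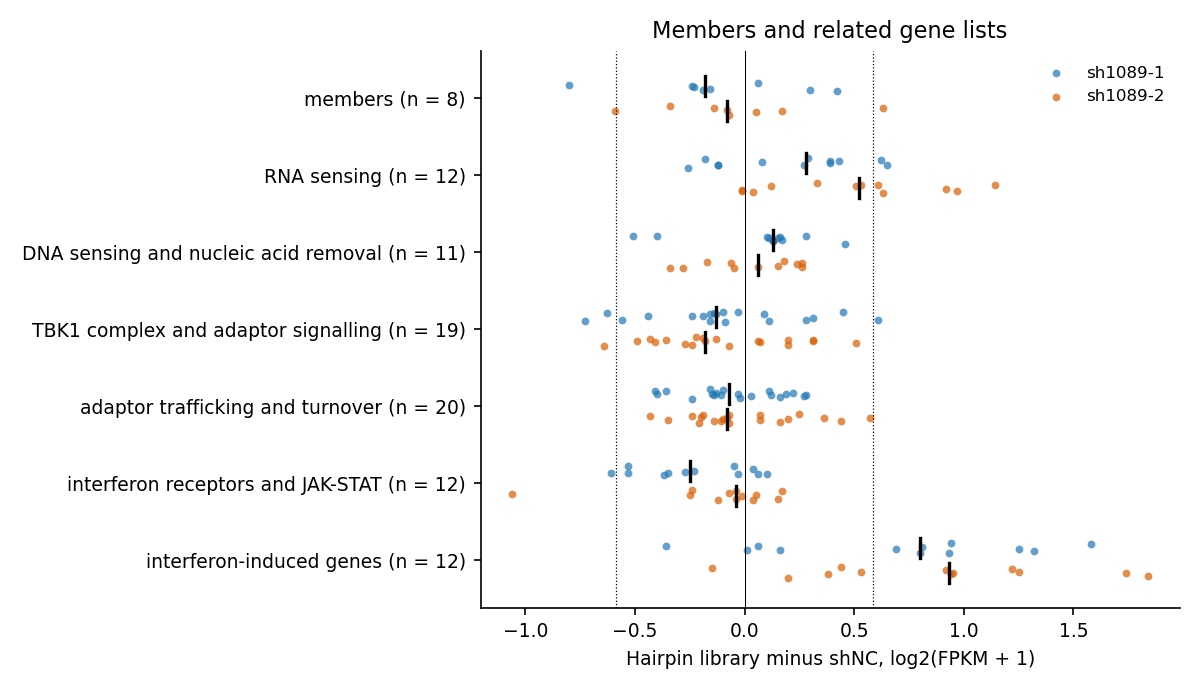
Difference from shNC in log2(FPKM + 1) of each measured gene in the members and 6 related lists, with sh1089-1 in blue and sh1089-2 in orange, black bars for the medians and dotted lines at 1.5-fold. The members scatter around medians of −0.18 and −0.08, while the interferon-induced genes have medians of 0.80 and 0.93.

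Among DNA sensing and nucleic acid removal genes, 0 of 11 measured were past 1.5-fold in both hairpins in either direction, with medians of 0.13 and 0.06. Of all measured genes, 2.79% were lower and 3.08% higher by this rule. IFI16, a nuclear DNA sensor, had 7.29, 4.84 and 5.56 FPKM, 1.51-fold (1.28 to 1.77) and 1.31-fold (1.12 to 1.54) below shNC. TREX1 was looked up, but no row of the deposited table was matched to it. ENPP1, which degrades the CGAS product outside cells, stood below the filter at 0.554, 0.464 and 0.613 FPKM. In the list of TBK1 partners and adaptors, UNC93B1 was at least 1.5-fold lower in both and none was higher, of 19 measured, and 12 of the 19 lay below shNC in both by any amount, beside 42.3% of all measured genes. UNC93B1, which carries Toll-like receptors to endosomes, had 27.0, 15.8 and 17.0 FPKM, 1.71-fold (1.53 to 1.90) and 1.59-fold (1.43 to 1.77) lower.

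IKBKE, a close relative of TBK1, had 2.79, 2.38 and 2.15 FPKM, and TRAF3, a ubiquitin ligase upstream of TBK1, 7.44, 6.88 and 6.47. TICAM1, the Toll-like receptor 3 adaptor, had 13.7, 14.8 and 14.3 FPKM, and MYD88, the adaptor of most other Toll-like receptors, 2.44, 3.26 and 3.27. The list medians were −0.13 and −0.18. Of 20 measured genes for adaptor trafficking and turnover, 0 were past 1.5-fold in both, with medians of −0.07 and −0.08.

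In the list of interferon receptors and JAK-STAT genes, 0 of 12 measured were past 1.5-fold in both, with medians of −0.25 and −0.04. IFNGR1, a receptor chain for interferon gamma named after its values were seen, was 1.555-fold and 2.498-fold lower than the control in FPKM. It was not counted, with −0.53 in log2(FPKM + 1) for sh1089-1. STAT2, a partner of IRF9 in the type I response, had 9.14, 5.64 and 8.84 FPKM, 1.62-fold lower in sh1089-1 (1.42 to 1.86), while its ratio of 0.967 in sh1089-2 had an interval that includes 1 (0.855 to 1.09).

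The genes whose pair of differences lay nearest to that of IRF7, among 4385 protein-coding genes within 2-fold of its mean level, were AFMID, PPP1R3B and KDM1B. Their distances in log2(FPKM + 1) over the 2 differences were 0.0193, 0.0349 and 0.0393. AFMID, a kynurenine formamidase gene, had 5.70 FPKM in the control and 2.90 and 3.49 with sh1089-1 and sh1089-2, and PPP1R3B, a glycogen-targeting subunit of protein phosphatase 1, 5.49, 2.69 and 3.23. With 3 libraries and a shared control, such likeness is a description only.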

How the data were processed

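The authors deposited 1 table of FPKM values per gene for 3 libraries, made from strand-specific mRNA libraries per the labels' protocols. FastQC, StringTie and build GRCh38 are named in the submitters' processing notes; for the aligner and annotation release, the record is not given in the sources used here. Each line has 1 library, so no test was run. Low FPKM values are whole multiples of what 1 read is worth, and whole reads came out at a whole gene length for 19136 genes, 99.6% of the 19219 above 0 (tolerance 0.0002 reads). Reads gave exact Poisson intervals for levels and Clopper-Pearson intervals for ratios (95%, scipy 1.17.1). They cover counting error only, since each line has 1 library. PCR copies cannot be told from separate molecules, so the intervals may be too narrow. Differences are in log2(FPKM + 1), with a filter of a mean of at least 1 FPKM and a fold of 1.5. Identifiers were paired with symbols, coordinates and overlaps through GENCODE 29 (22444 of 22464 found there), and promoter sequences are from RefSeq (GRCh38.p14). All members are named, then genes of each list past 1.5-fold in both hairpins (up to 6 by the smaller difference), a fixed set of sensors, adaptors, kinases and signalling genes (some are not reported here), and the 3 genes nearest to IRF7. The members and lists were chosen with earlier results of these data known. Pseudocount, filter, fold and scaling were varied. A ratio without a pseudocount and a background of 100 reads or more in protein-coding genes were added after seeing the data. The recovery of whole reads was tested on simulated reads, with the library totals taken as known.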

Additional observations from a re-analysis of the deposited data

Results flagged for a closer look

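IRF5 stood on opposite sides of shNC in the 2 hairpin libraries, at 0.485 FPKM in sh1089-1 and 1.34 FPKM in sh1089-2, beside 1.09 FPKM in shNC. The level in sh1089-2 was 2.77-fold that in sh1089-1 (95% counting interval 1.64 to 4.85), on 51 and 21 reads. The difference was not tested, since each line has 1 library.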

How the results depend on the processing

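The count of members at least 1.5-fold lower in both hairpins, 1 in the values reported, was 0 after rescaling to TPM, 0 after centring on the median gene and 0 at a fold of 2. With a threshold of 25% above shNC, the count higher in both was 1 (IRF1), against 0. The member median in sh1089-2 was −0.01 under TPM, against −0.08. The other alternatives kept both counts, with 8 to 10 members entering except at a mean of at least 5 FPKM, where 5 did. None dropped the filter and the pseudocount together, so no count took in IRF9 without a pseudocount. Of 100 single-member values under the alternatives, 0 changed sign. A pseudocount cannot change a sign, so only the values rescaled to TPM or centred on the median gene could have done so. Sizes of the low members depend on the pseudocount: in sh1089-1 IRF9 ran from −0.38 to −2.74 on the log2 scale without one and IRF5 from −0.49 to −1.17, and in sh1089-2 IRF9 from −0.24 to −1.23 and IRF5 from 0.16 to 0.30. Depth limits IRF9 and IRF5 most. One library a line leaves the spread between cultures unknown.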

Other observations

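Other IRF genes were read beside the members. IRF4 and IRF8, factors of lymphoid and myeloid cells, were listed at 0 in every library. The IRF2 binding proteins stood well above IRF2 itself: IRF2BP1 had 17.1, 18.8 and 19.3 FPKM, IRF2BP2 27.6, 22.6 and 27.7, and IRF2BPL 15.4, 10.9 and 13.5. Of these 3 measured genes, 0 were past 1.5-fold in both hairpins. The IRF2 binding proteins are named after their values were seen.

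DHX58, a regulator of RIGI, had 3.28, 4.58 and 7.10 FPKM, and IFNGR1, a receptor chain for interferon gamma, 6.47, 4.16 and 2.59. Both were chosen after their values were seen, and in both the step from sh1089-1 to sh1089-2 went the same way as the step from shNC to sh1089-1.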
